A study of Mus musculus with 44 samples.

Results

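The genes described here are 7 genes of neurons and their processes, Uchl1, Tubb3, Prph, Elavl4, Stmn2, Snap25 and Syp, among 31484 genes to which the deposited transcripts could be assigned. The question was whether the higher level of Uchl1 under netazepide was shared by other neuronal genes. Uchl1 was chosen by its difference between netazepide-treated and vehicle-treated knockout mice, so its values in every comparison that holds a knockout group are a description with no test. The other 6 genes were listed by function, but with earlier results of these data known. Their tests may therefore not be independent of those results. All 7 passed the filter on low counts and are among the 14901 genes tested.

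RNA was taken from the gastric corpus of female BalbC mice aged 13 months. KO mice lack the beta subunit of the H+/K+ATPase, the proton pump of the parietal cell, and WT mice carry it. Both genotypes received netazepide (NTZ), an antagonist of the gastrin receptor, or its vehicle polyethylene glycol (PEG), by repeated subcutaneous injection from a young age. The libraries of poly(A) RNA numbered 11 for WT given PEG, 9 for WT given NTZ, 13 for KO given PEG and 11 for KO given NTZ. The biopsies were of whole mucosa, which holds epithelium, nerve fibres, glia, muscle and vessels, and in such bulk samples fewer cells of a type and less RNA per cell cannot be told apart. For KO/PEG there are more libraries than the study reports mice, and how they relate is not stated.

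The stomach wall has its own nervous system. The cell bodies of its neurons lie in ganglia between the muscle layers and under the mucosa, and their axons run through the muscle and up into the lamina propria between the glands. Axons coming from the vagus, sympathetic and sensory ganglia join them, and glia accompany both. Several of these genes are used to find neurons and nerve fibres in tissue sections. Uchl1 (the protein is also known as PGP9.5), Snap25 and Syp are also made by neuroendocrine cells, and gastrin drives the growth of the neuroendocrine cells of the corpus.

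Total estimated counts per library were between 6065084 and 21945124. Values are CPM, counts scaled by edgeR to a common library size after TMM normalization, unless TPM, which are also scaled by transcript length, are named. The smallest signal taken as detectable, 3 counts, corresponds to between 0.137 and 0.495 CPM before TMM. This floor covers counting error only. Atp4b, the gene deleted in KO mice, had between 2139 and 5738 CPM in the 20 WT libraries and between 2.28 and 40.6 CPM in the 24 KO libraries, so no library went against its genotype label. The marker genes of the corpus epithelium summed to between 108900 and 295177 CPM in WT and between 17133 and 93183 CPM in KO libraries. Markers of squamous epithelium of the forestomach varied from 0.427 to 1894 CPM, and the highest sum was in WT/NTZ replicate 4. One WT/PEG pair of libraries carries a single number in its labels. Its chi-square over genes was 16.9 per degree of freedom, which ranked 11 among the 55 WT/PEG pairs, and both libraries were kept.

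The length of transcripts moved with genotype in these libraries, which bears on every gene below. For each library, the deviation of log2 CPM from the mean was regressed on the log2 of transcript length over all genes tested. This length slope ran from 0.122 to 0.350 in WT/PEG and from 0.0776 to 0.268 in WT/NTZ. It ran from −0.373 to 0.166 in KO/PEG and from −0.336 to −0.0688 in KO/NTZ. A lower slope means that long transcripts had fewer counts relative to short ones. The slopes of KO/NTZ did not overlap with those of WT, and KO/PEG overlapped with WT only at its upper end. Genotype and slope can therefore not be told apart well in KO and WT comparisons, while KO/PEG and KO/NTZ overlap. Within groups, the levels of Snap25 and Elavl4 moved with the slope (r = 0.79 and 0.73 over 44 libraries after subtracting the group means, a description across libraries that share depth and preparation), while r was 0.35 for Stmn2, 0.039 for Prph, −0.18 for Tubb3, −0.23 for Syp and −0.43 for Uchl1.

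Uchl1 encodes a ubiquitin C-terminal hydrolase that is abundant in neurons. The gene lies at chr5:66676091-66687234 on the plus strand of GRCm38. In WT/PEG the lowest, median and highest library had 6.84, 9.90 and 12.6 CPM. In WT/NTZ these values were 5.72, 8.84 and 10.6 CPM. In KO/PEG they were 2.99, 5.72 and 11.2 CPM, and in KO/NTZ 4.13, 12.8 and 18.02 CPM. The KO/NTZ libraries thus held both the highest levels of the series and 1 low library, replicate 5, and the groups overlapped. Of the 11 KO/NTZ libraries, 7 were above the highest KO/PEG library and 8 above the median of WT/PEG. The mean was 12.3 ± 3.86 CPM (SD, n = 11) in KO/NTZ against 5.86 ± 2.15 (SD, n = 13) in KO/PEG, a log2 fold change of 1.07 ± 0.17 (SE). Without KO/NTZ replicate 5 the log2 fold change was 1.17. Against WT/PEG, Uchl1 had a log2 fold change of −0.72 ± 0.17 (SE) in KO/PEG and of 0.35 ± 0.18 (SE) in KO/NTZ, and against WT/NTZ it had 0.47 ± 0.19 (SE) in KO/NTZ. With each library's length slope as a covariate, the difference from KO/PEG to KO/NTZ was 1.02, while the differences of KO/NTZ from WT/PEG and WT/NTZ turned to −0.47 and −0.22.

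**Figure D1:**
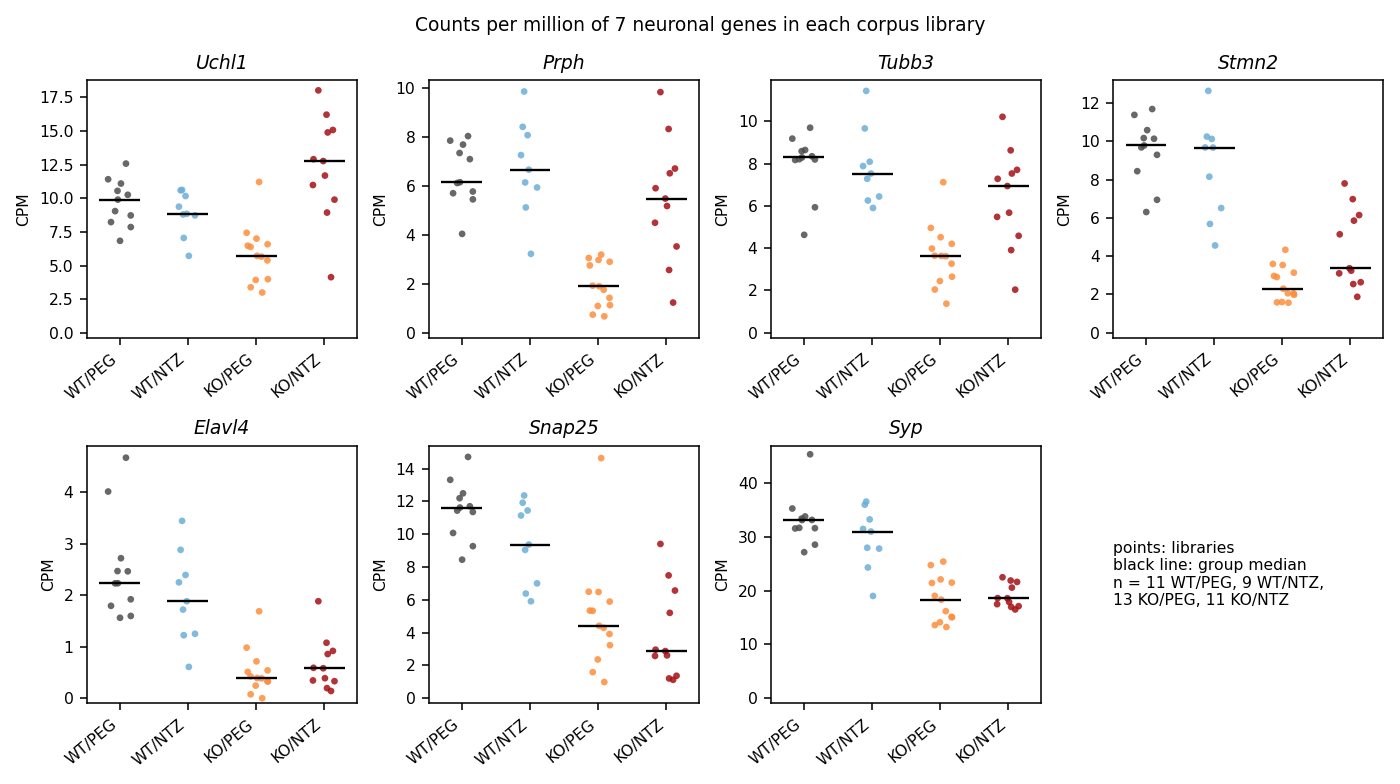
CPM (vertical axes, linear) of the 7 neuronal genes in each library of the 4 groups, with points for libraries and black lines for group medians. Uchl1, Prph and Tubb3 in KO/NTZ (medians 12.8, 5.48 and 6.94 CPM) lie near or above the WT/PEG medians of 9.90, 6.14 and 8.29 CPM, whereas Stmn2, Elavl4, Snap25 and Syp stay below those of WT/PEG.

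Kallisto divided the Uchl1 counts over 4 transcripts, and most of the higher level in KO/NTZ was in Uchl1-202. Uchl1-201 (ENSMUST00000031131, 1177 bases) encodes the protein. Uchl1-202 (ENSMUST00000176015, 980 bases) is annotated as a retained intron and starts inside the gene, and its last 928 bases, which are 94.7% of its length, are those of Uchl1-201. Uchl1-202 differs from Uchl1-201 by 52 bases at its 5′ end, at chr5:66676892-66676943 of GRCm38 on the plus strand, in place of the 244 bases with which Uchl1-201 begins. These bases are shown because they are the sequence in which the transcript with the higher counts differs from the coding one. Capitals mark the first 12 bases shared with Uchl1-201.
Uchl1-202 start: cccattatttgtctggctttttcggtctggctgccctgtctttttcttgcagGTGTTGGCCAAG

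Of the 950 words of 31 bases in Uchl1-202, 52 occur in no other deposited transcript, and of the 1147 in Uchl1-201, 183 do. The division between them therefore rests on little sequence. None of the words of either occurs in a deposited transcript assigned to another gene. In WT mice the estimated CPM of Uchl1-202 were 6.18 ± 1.84 with PEG and 6.19 ± 1.19 with NTZ (SD, n = 11 and 9). In KO mice they were 4.27 ± 1.72 with PEG and 9.85 ± 3.42 with NTZ (SD, n = 13 and 11). Uchl1-201 had 2.55 ± 1.08, 1.99 ± 1.15, 1.13 ± 0.838 and 1.41 ± 0.852 CPM in the same order. The log2 fold change of KO/NTZ versus KO/PEG was 1.18 ± 0.20 (SE) for Uchl1-202 and 0.29 ± 0.41 (SE) for Uchl1-201, as a description. The study listed Uchl1 by its coding transcript Uchl1-201 and reported no effect of NTZ on it in KO mice. The short Uchl1-204, also annotated as a retained intron, had medians of 0.405 CPM in KO/PEG and 1.08 CPM in KO/NTZ, with 1.18 ± 0.47 (SE). The median share of Uchl1 counts given to Uchl1-201 was 24% in WT given PEG and 16.1% with NTZ, and 16.9% in KO given PEG and 13.0% with NTZ, and the ranges overlapped widely. An antisense gene, Uchl1os, overlaps the 5′ exons of Uchl1-201 but not Uchl1-202 and was not analysed here. The libraries were stranded, but whether kallisto used the strand is not given in the sources used here, and without it reads of the strands cannot be told apart.

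**Figure D2:**
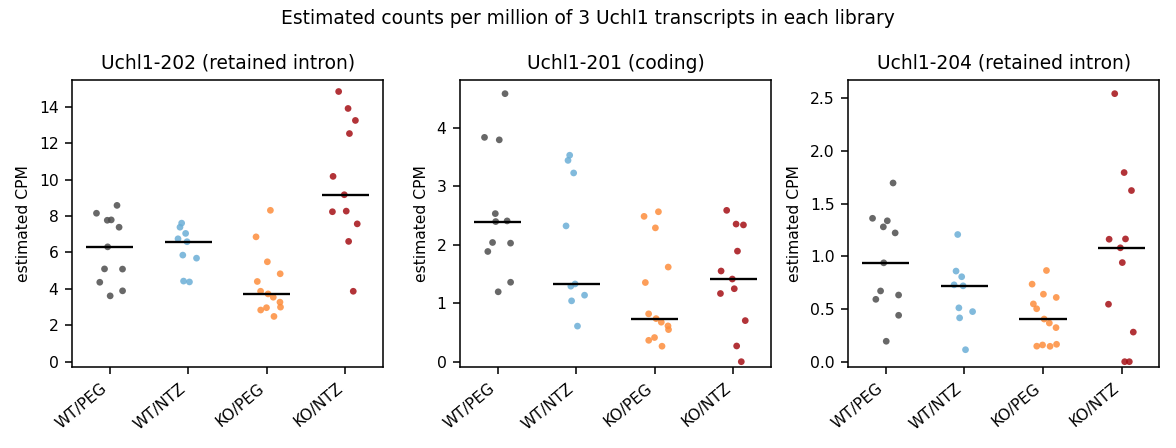
Estimated CPM (vertical axes, linear, different scales) of 3 Uchl1 transcripts in each library, with points for libraries and black lines for medians. Uchl1-202 has a median of 9.17 CPM in KO/NTZ against 3.72 in KO/PEG, while Uchl1-201 has medians of 1.41 and 0.736 CPM with overlapping libraries.

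Prph had the largest difference between KO/NTZ and KO/PEG among the 7 genes. It encodes peripherin, an intermediate filament protein of peripheral and enteric neurons (chr15:99055174-99058978, plus strand, GRCm38). The lowest, median and highest library had 4.04, 6.14 and 8.03 CPM in WT/PEG and 3.22, 6.66 and 9.85 CPM in WT/NTZ. They had 0.673, 1.90 and 3.19 CPM in KO/PEG and 1.23, 5.48 and 9.82 CPM in KO/NTZ. All 13 KO/PEG libraries were below the lowest WT/PEG library, whereas 9 of 11 KO/NTZ libraries were above the highest KO/PEG library. Prph fell by 1.72 on the log2 scale in KO/PEG versus WT/PEG (SE 0.25, adjusted p = 7.07e-08, quasi-likelihood test of edgeR, Benjamini-Hochberg adjusted over all genes) and rose by 1.48 ± 0.24 (SE) in KO/NTZ versus KO/PEG (adjusted p = 0.000118, same test). The mean of KO/NTZ was 83.9% of that of WT/PEG, and the difference between them was −0.24 on the log2 scale (95% interval −0.74 to 0.26, adjusted p = 0.37 by edgeR). These comparisons share the KO/PEG or WT/PEG libraries.

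Tubb3 encodes the neuronal class III beta-tubulin (chr8:123411424-123422015, plus strand, GRCm38). Its lowest, median and highest values were 4.63, 8.29 and 9.69 CPM in WT/PEG and 5.90, 7.53 and 11.4 CPM in WT/NTZ. They were 1.38, 3.63 and 7.12 CPM in KO/PEG and 2.04, 6.94 and 10.2 CPM in KO/NTZ. KO/PEG and KO/NTZ overlapped, with 5 of 11 KO/NTZ libraries above the highest KO/PEG library and 10 of 11 above the KO/PEG median. Tubb3 fell by 1.13 (SE 0.19) on the log2 scale in KO/PEG versus WT/PEG (adjusted p = 2.27e-06 by edgeR) and rose by 0.81 ± 0.19 (SE) in KO/NTZ versus KO/PEG (adjusted p = 0.00859 by edgeR). KO/NTZ and WT/PEG differed by −0.32 (95% interval −0.73 to 0.08, adjusted p = 0.136 by edgeR).

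Stmn2 encodes stathmin-2, a protein of growing neurites that binds tubulin (chr3:8509360-8561606, plus strand, GRCm38). Its lowest, median and highest values were 6.31, 9.78 and 11.7 CPM in WT/PEG and 4.56, 9.67 and 12.6 CPM in WT/NTZ. They were 1.57, 2.30 and 4.34 CPM in KO/PEG and 1.88, 3.37 and 7.80 CPM in KO/NTZ. No KO/PEG library reached the range of WT/PEG, and 2 of 11 KO/NTZ libraries did. Stmn2 fell by 1.87 (SE 0.20) on the log2 scale in KO/PEG (adjusted p = 1.35e-10 by edgeR) and rose by 0.79 ± 0.20 (SE) in KO/NTZ versus KO/PEG (adjusted p = 0.0126 by edgeR). Stmn2 was lower in KO/NTZ than in WT/PEG, with a log2 fold change of −1.07 ± 0.21 (SE, adjusted p = 1.15e-05 by edgeR). This call ended with the length slope as a covariate (−0.24, adjusted p = 0.698 by edgeR), and whether Stmn2 differed from Prph and Tubb3 in this comparison was not tested. In the fit per transcript, its coding transcript Stmn2-201 had a log2 fold change of 0.59 in KO/NTZ versus KO/PEG and did not pass (adjusted p = 0.226 by edgeR).

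In KO/NTZ versus KO/PEG, 3 of the 6 neuronal genes other than Uchl1 thus rose and none fell, where 2.97% of the 14901 genes tested were higher and 2.6% lower. The calls of Tubb3 and Stmn2 were lost when only the KO libraries were fitted (adjusted p = 0.0779 and 0.0855 by edgeR). They were also lost with the KO libraries whose label numbers are below 100 (0.0543 and 0.0913 by edgeR). The log2 fold changes were at least 0.62. The numbers in the labels go with the groups. Of KO/NTZ libraries 10 of 11 are numbered below 100, of KO/PEG 6 of 13, of WT/NTZ 5 of 9 and of WT/PEG none, and what the numbers mean is not stated. The restricted fit thus compared 10 with 6 KO libraries. Prph passed in both (0.00797 and 0.00489). KO/NTZ replicate 5 was the lowest KO/NTZ library for Uchl1, Prph, Tubb3 and Stmn2, and the 3 calls held when any 1 library was left out.

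The other 3 genes did not pass in this comparison. Elavl4 encodes an RNA-binding protein of the Hu family that is found in the cell bodies of neurons (chr4:110203722-110351909, minus strand, GRCm38), and it was near the limit of detection in KO mice. Its lowest, median and highest values were 1.56, 2.23 and 4.67 CPM in WT/PEG and 0.608, 1.88 and 3.44 CPM in WT/NTZ. In KO/PEG the lowest library had 0 counts of Elavl4 and the highest 25, with a median of 0.393 CPM. In KO/NTZ the values were 0.140, 0.582 and 1.88 CPM. KO/NTZ and KO/PEG overlapped over nearly their whole range, and the log2 fold change was 0.41 (95% interval −0.32 to 1.15, adjusted p = 0.465 by edgeR).

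Snap25 encodes a SNARE protein of the presynaptic membrane (chr2:136713453-136782428, plus strand, GRCm38). Its lowest, median and highest values were 8.45, 11.6 and 14.7 CPM in WT/PEG and 5.91, 9.37 and 12.4 CPM in WT/NTZ. They were 0.987, 4.42 and 14.6 CPM in KO/PEG and 1.12, 2.87 and 9.41 CPM in KO/NTZ. The spread among KO libraries was wide, with a coefficient of variation of 67.9% in KO/PEG and 71.1% in KO/NTZ against 15.4% in WT/PEG. The log2 fold change of KO/NTZ versus KO/PEG was −0.30 (95% interval −0.89 to 0.29, adjusted p = 0.508 by edgeR).

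Syp encodes synaptophysin, a protein of the synaptic vesicle membrane (chrX:7638471-7653256, plus strand, GRCm38), and it had the narrowest interval of the 7. Its lowest, median and highest values were 27.2, 33.2 and 45.4 CPM in WT/PEG and 19.0, 31.02 and 36.6 CPM in WT/NTZ. They were 13.25, 18.3 and 25.4 CPM in KO/PEG and 16.5, 18.6 and 22.5 CPM in KO/NTZ. Every KO library was below every WT/PEG library, and the KO/NTZ libraries lay within the range of KO/PEG. The log2 fold change of KO/NTZ versus KO/PEG was 0.048 (95% interval −0.16 to 0.26, adjusted p = 0.789 by edgeR).

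In KO/PEG versus WT/PEG, all 6 genes other than Uchl1 fell, where 37.2% of all genes tested were lower and 37.5% higher. Elavl4 fell by 2.25 (SE 0.35), Snap25 by 1.19 (SE 0.28) and Syp by 0.85 (SE 0.10) on the log2 scale (adjusted p = 3.89e-07, 0.000291 and 3.13e-09 by edgeR). With the length slope as a covariate, 4 of the 6 remained lower, namely Prph, Tubb3, Stmn2 and Syp. The difference of Elavl4 became 0.043 (adjusted p = 0.952 by edgeR) and that of Snap25 turned to 0.84 (adjusted p = 0.0399 by edgeR), so the direction of these genes between genotypes depends on this setting.

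In KO/NTZ versus WT/NTZ, 4 of the 6 were lower, where 36.8% of all genes were lower and 35.6% higher. Elavl4, Snap25, Stmn2 and Syp fell by 1.48 (SE 0.38), 1.195 (SE 0.32), 0.93 (SE 0.22) and 0.64 (SE 0.11) on the log2 scale (adjusted p between 5.29e-06 and 0.000922 by edgeR). Prph and Tubb3 both had −0.30 and did not pass (adjusted p = 0.296 and 0.191 by edgeR). The same 4 genes were lower in KO/NTZ versus WT/PEG, where 38.5% of all genes were lower and 38.5% higher. With the length slope as a covariate, only Syp passed in either comparison, and Elavl4 and Snap25 turned positive without passing.

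**Figure D3:**
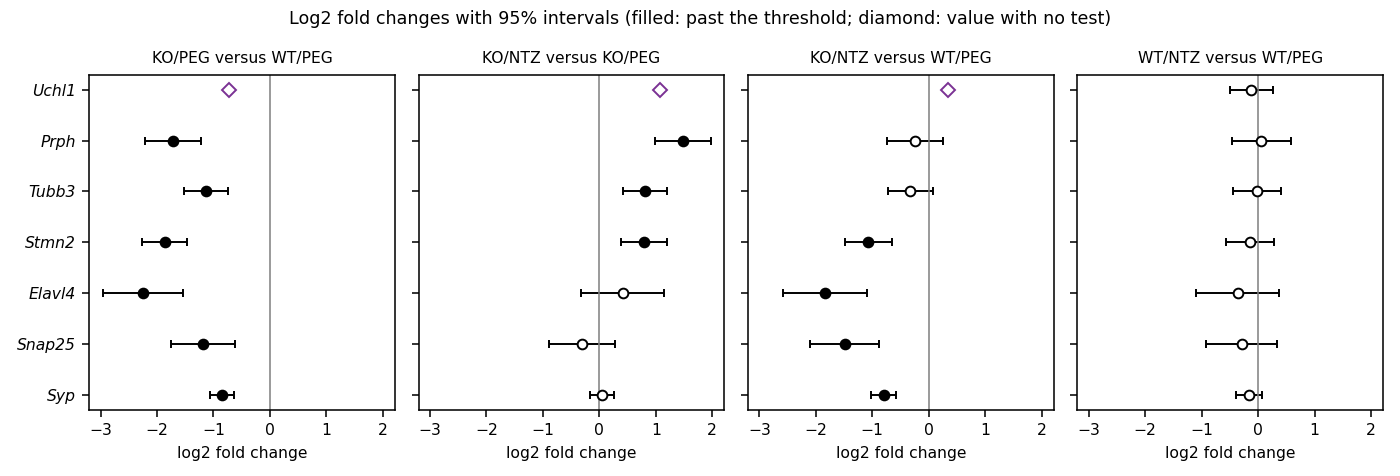
Log2 fold changes (horizontal axes) of the 7 genes in 4 comparisons, with 95% intervals from edgeR. Filled points passed an adjusted p of 0.05, open points did not, and diamonds are Uchl1 values with no test. All 6 tested genes lie below 0 in KO/PEG versus WT/PEG, and Prph (1.48), Tubb3 (0.81) and Stmn2 (0.79) lie above 0 in KO/NTZ versus KO/PEG.

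In WT mice, none of the 7 genes changed with NTZ, where 1.03% of all genes tested were higher and 0.00671% lower. None had an unadjusted p under 0.05 in edgeR's test, and DESeq2 and limma-trend called none. For Uchl1, for which this comparison is independent of its choice, the log2 fold change was −0.12 (95% interval −0.51 to 0.26, adjusted p = 0.95 by edgeR). The interval of Syp (−0.39 to 0.07) was narrower than that of Uchl1. Those of Prph (−0.46 to 0.58), Tubb3 (−0.44 to 0.40), Stmn2 (−0.57 to 0.29), Elavl4 (−1.10 to 0.38) and Snap25 (−0.92 to 0.34) were wider. WT/NTZ replicate 9 was the lowest WT/NTZ library for Uchl1, Prph, Elavl4, Stmn2 and Syp and the highest for Tubb3. Markers of squamous forestomach epithelium summed to medians of 0.853 CPM in WT/PEG and 379 CPM in WT/NTZ, with overlapping ranges. The part of this tissue in the WT comparison was not tested.

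Whether NTZ acted differently in the genotypes was tested as an interaction, the effect in KO minus that in WT. It passed for Prph alone of the 6, at 1.42 ± 0.36 (SE, adjusted p = 0.0376 by edgeR), where 0.242% of all genes had a higher and 0.718% a lower effect in KO. The call was lost, with adjusted p up to 0.0798, when any 1 of 11 libraries was left out, namely KO/NTZ replicates 1, 3 and 7, KO/PEG replicate 13, WT/NTZ replicates 4 and 9, and WT/PEG replicates 3, 4, 5, 6 and 7. It was also lost with limma-trend (0.0756), with no filter on low counts (0.0527) and with KO libraries numbered below 100 (0.0828). Stmn2 had a difference of 0.94 ± 0.29 (adjusted p = 0.115) and Tubb3 of 0.83 ± 0.29 (adjusted p = 0.169), and did not pass. Elavl4 (0.77), Syp (0.21) and Snap25 (−0.01) did not pass either. For Uchl1 the difference was 1.19 ± 0.26 (SE), as a description.

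Per transcript length, Syp and Uchl1 were the highest of the 7 genes. In WT/PEG, Syp had 15.2 ± 1.44 TPM and Uchl1 13.9 ± 2.89 TPM (SD, n = 11), which lie within their spread of each other. Snap25 (6.58 ± 0.952) and Stmn2 (6.23 ± 1.24) followed, then Tubb3 (4.73 ± 0.727) and Prph (4.07 ± 0.668), each pair within its spread, and Elavl4 was lowest at 0.785 ± 0.318 TPM. In KO/PEG, Uchl1 (9.21 ± 3.24 TPM) and Syp (9.14 ± 1.90 TPM) were level with each other. In KO/NTZ, Uchl1 had 18.1 ± 5.73 TPM, Syp 8.59 ± 1.38 and Stmn2 5.58 ± 2.25 TPM, and Snap25 had 2.40 ± 1.94 TPM. The TPM of Uchl1 depend on how its counts were divided over transcripts of different length.

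Within groups, some of the 7 genes ran together and others did not. After subtracting the group means of log2 CPM over the 44 libraries, Pearson's r was 0.76 between Uchl1 and Prph, 0.67 between Uchl1 and Tubb3, and 0.51 between Uchl1 and Stmn2. Prph correlated with Stmn2 (0.79) and Tubb3 (0.76). Elavl4 and Snap25 correlated with each other (0.75) and with Uchl1 at −0.12 and −0.26. Syp had r = 0.42 with Uchl1 and between 0.060 and 0.27 with the other 5. The median over the 21 pairs was 0.28. These correlations are descriptions across libraries, which share depth and the length slope given above.

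Prph and Tubb3 were also among the 8 genes of 14900 with the pattern most like that of Uchl1. Over the 44 libraries the 8 were Fxyd7 (r = 0.82), Prph (0.80), Hoxb5 (0.80), Tmem59l (0.76), Sult4a1 (0.76), Psd (0.74), Tmem179 (0.73) and Tubb3 (0.73). After subtracting the group means they were Prph (0.76), Hoxb5 (0.69), Fxyd7 (0.69), Ilk (0.68), Tubb3 (0.67), Cbs (0.67), Tmem59l (0.66) and Stmn3 (0.66). Stmn2 ranked 101, Syp 541, Elavl4 2563 and Snap25 9070 in the first order, which includes the difference by which Uchl1 was chosen. After subtracting the group means they ranked 250, 1177, 8737 and 10992.

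Other genes of neurons and glia were examined from 4 lists that hold 82 genes, of which 71 were tested. These lists were also chosen with earlier results known, and they were pooled after their values were seen. In KO/NTZ versus KO/PEG, 15 of the 71 rose and none fell, where 2.97% of all genes tested were higher and 2.6% lower. The median log2 fold change of the 71 was 0.42 against −0.01 over all genes. Of 24 genes of neuron identity and neurites tested, 5 rose, namely Stmn3 (0.81 ± 0.17, adjusted p = 0.00238), Gng3 (1.34 ± 0.33, adjusted p = 0.00999), Phox2a, a transcription factor of autonomic neurons (1.42 ± 0.38), Sncg (0.81 ± 0.24) and Hand2, a transcription factor of enteric and sympathetic neurons (0.85 ± 0.25; values ± SE from edgeR). Of 19 genes of synaptic vesicles and release, Vamp2 (0.57 ± 0.14) and Syt4 (0.98 ± 0.29) rose. Of 14 transmitter genes, 4 rose. They were Nmu, which encodes neuromedin U (3.21 ± 0.60), Penk, which encodes enkephalin (1.04 ± 0.22), Slc18a3, the vesicular acetylcholine transporter (1.61 ± 0.34), and Nos1, the neuronal nitric oxide synthase (0.73 ± 0.23). Nmu was also the 1 gene of these lists that rose with NTZ in WT mice. Its WT/PEG median of 0.213 CPM was near the limit of detection, and the WT/NTZ libraries ran from 0.102 to 8.64 CPM. No gene of these lists rose in WT mice with limma-trend or when only the WT libraries were fitted. In KO/PEG, Nmu, Phox2a, Gng3, Slc18a3 and Syt4 were near the limit of detection, with medians of 0.098, 0.245, 0.245, 0.270 and 0.458 CPM. This limits what their fold changes can show. The KO/PEG medians of the other risen genes named here were 1.24 CPM (Nos1) or more. Penk had medians of 10.3 CPM in WT/PEG, 17.4 in KO/PEG and 39.2 in KO/NTZ, and Vamp2 of 55.4, 61.0 and 92.4 CPM. By median, Penk and Vamp2 were thus not lower in KO/PEG than in WT/PEG. The other risen genes named in this paragraph were. When only the KO libraries were fitted, 3 of 55 list genes rose and none fell, where 1.04% of all genes tested in that fit were higher and 0.863% lower. With KO libraries numbered below 100, 8 of 71 rose and 2 fell, where 3.76% of all genes were higher and 5.53% lower.

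Of 14 genes of enteric glia and Schwann cells, 4 rose in KO/NTZ versus KO/PEG, where 2.97% of all genes tested were higher. Sox10, the transcription factor that maintains glia of the peripheral nervous system, rose by 1.57 ± 0.22 (SE, adjusted p = 4.7e-06 by edgeR), Entpd2 by 0.56 ± 0.13 and Gfra3 by 1.27 ± 0.34. Sox10 and Gfra3 were near the limit of detection in KO/PEG, with medians of 0.495 and 0.327 CPM. Their WT/PEG medians were 2.17 and 1.48 CPM. Entpd2 went the other way between genotypes, with medians of 16.4 CPM in WT/PEG, 25.4 in KO/PEG and 43.7 in KO/NTZ. The effect of NTZ on Sox10 also differed between KO and WT mice (1.36, by the interaction test of edgeR).

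In KO/PEG versus WT/PEG, 45 of the 71 nervous system genes were lower and 9 higher, where 37.2% of all genes were lower and 37.5% higher. The median log2 fold change of the 71 was −0.74 against −0.0029 over all genes. Map2 (−2.16 ± 0.23), Map1b (−1.68 ± 0.18), Syt1 (−2.17 ± 0.22), Nos1 (−2.33 ± 0.23) and Cdh19 (−3.44 ± 0.36) were among those with the smallest p. With the length slope as a covariate, 15 were lower and 3 higher, where 16.4% of all genes were lower and 16.3% higher. In KO/NTZ versus WT/PEG, 32 of the 71 were lower and 12 higher, where 38.5% of all genes were lower and 38.5% higher. With the slope, 1 was lower and 3 higher, where 11.5% of all genes were lower and 11.2% higher.

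Over all genes, length moved with these results as follows, with the genes split by length into 3 classes of equal size. In KO/PEG versus WT/PEG, 65.3% of the genes in the shortest class (count-weighted length up to 1939 bases) were higher and 12.8% lower, and in the longest class (above 3474 bases) 12.5% were higher and 64.7% lower. In KO/NTZ versus KO/PEG, the median log2 fold change was 0.07 in the shortest and −0.09 in the longest class. Uchl1, Prph, Tubb3 and Stmn2, with lengths of 953, 1760, 1868 and 1927 bases, are in the shortest class, Snap25 (2060) and Syp (2582) in the middle class and Elavl4 (3801) in the longest. Of the nervous system genes, 7 of 23 in the shortest, 5 of 20 in the middle and 3 of 28 in the longest class rose in KO/NTZ versus KO/PEG. With the length slope as a covariate, Prph, Tubb3 and Stmn2 still passed (1.49, 0.79 and 0.85), and 27 of the 71 nervous system genes rose and 1 fell, where 6.53% of all genes were higher and 4.83% lower.

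**Figure D4:**
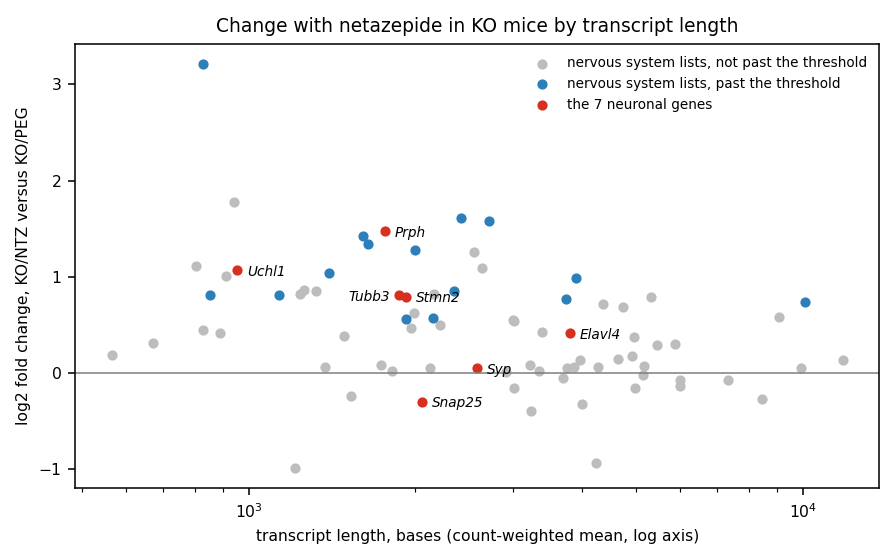
Log2 fold change of KO/NTZ versus KO/PEG (vertical axis) of 71 genes of the nervous system lists and the 7 neuronal genes, by transcript length in bases (horizontal axis, log scale). The 4 neuronal genes with values of 0.79 or more have lengths under 1939 bases, and Elavl4, with 3801 bases, has 0.41.

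Genes of other cells moved in these libraries too. Smooth muscle genes summed to between 1219 and 4285 CPM (median 2066) in KO/PEG and between 2478 and 5428 CPM (median 4158) in KO/NTZ, against 3017 to 5127 CPM (median 4430) in WT/PEG. In KO/NTZ versus KO/PEG, 5 of 12 smooth muscle genes rose and none fell, where 2.97% of all genes tested were higher and 2.6% lower. Smtn rose by 0.86 ± 0.14 (SE), Acta2 by 0.76 ± 0.14, Lmod1 by 0.85 ± 0.17, Tagln by 0.74 ± 0.15 and Des by 0.89 ± 0.20. Among genes of other tissues of the wall and its surroundings, skeletal muscle markers summed to medians of 8.10 CPM in KO/PEG and 22.1 CPM in KO/NTZ, and adipose markers to 18.3 and 40.3 CPM. Markers of squamous forestomach epithelium summed to medians of 20.1 CPM in KO/PEG and 87.8 CPM in KO/NTZ. Most of this sum was Krt13 (19.9 and 76.8 CPM), while Trp63 and Dsg3 had medians of 0 CPM in both KO groups. The median sum of mesothelium markers was 8.4 CPM in KO/PEG and 4.31 CPM in KO/NTZ, and that of fibroblast markers 189 and 138 CPM. Endothelium markers had 186 and 187 CPM and immune cell markers 17.8 and 12.8 CPM. Msln made up most of the mesothelium sum, with medians of 7.74 and 3.76 CPM. Upk3b (0.212 and 0.517 CPM) and Wt1 (0.0529 and 0.142 CPM) were low and moved the other way. Most of the endothelium sum was Pecam1 (168 and 168 CPM), while Cdh5 had 10.9 and 6.21 CPM and Vwf 5.32 and 5.86 CPM. For each of these lists the libraries of both KO groups overlapped, and none of these sums was tested. The part of these cells in the neuronal result was not tested.

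Of 22 neuroendocrine genes tested, 7 fell and 3 rose in KO/NTZ versus KO/PEG, where 2.6% of all genes were lower and 2.97% higher. Hdc, the histidine decarboxylase of the enterochromaffin-like cell, fell by 1.97 (SE 0.22), Chgb by 1.52 (SE 0.17), Chga, chromogranin A, by 1.22 (SE 0.15) and Pcsk1 by 1.65 (SE 0.23) on the log2 scale. Pcsk1n rose by 1.66 ± 0.27 (SE), Pcsk2 by 0.64 ± 0.16 and Sst, somatostatin, by 0.89 ± 0.27. Hdc and the chromogranins moved opposite to Prph, Tubb3 and Stmn2. The summed level of the list had a median of 5054 CPM in KO/PEG and 5674 CPM in KO/NTZ, with ranges of 3361 to 8455 and 4627 to 7818 CPM. Most of this sum was Ghrl, which encodes ghrelin, with medians of 3074 CPM in KO/PEG and 4441 CPM in KO/NTZ, whereas Chga had medians of 1659 and 648 CPM.

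**Figure D5:**
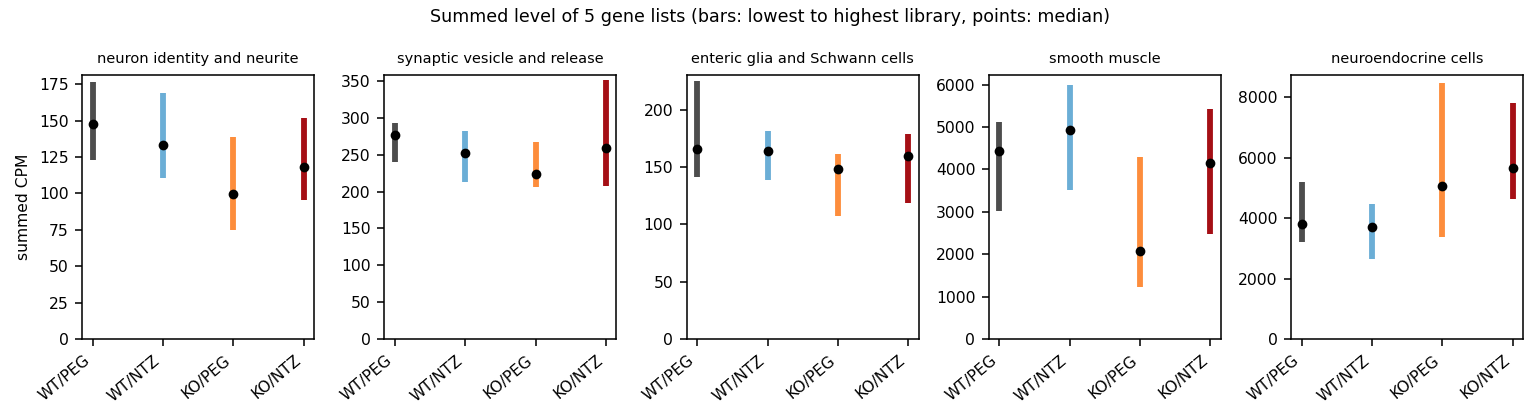
Summed CPM (vertical axes, linear from 0, different scales) of 5 gene lists by group, with bars from the lowest to the highest library and points for medians. The medians of smooth muscle genes are 2066 CPM in KO/PEG and 4158 in KO/NTZ, and those of neuron identity and neurite genes are 99.4 and 117.8 CPM.

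The nearest relatives of the 7 genes, which are made in many cell types, did not pass in KO/NTZ versus KO/PEG. Uchl3 had a log2 fold change of −0.23 ± 0.10 (SE), Tubb5 0.13 ± 0.13, Vim −0.12 ± 0.16, Elavl1 −0.16 ± 0.08, Stmn1 0.33 ± 0.13, Snap23 −0.30 ± 0.15 and Sypl −0.31 ± 0.15. Of 16 relatives tested, Stmn3 and Tubb4a (0.42 ± 0.12) rose, where 2.97% of all genes tested were higher. Words of 31 bases shared with deposited transcripts of other genes made up 3.26% of Tubb3 (other tubulins) and 1.92% of Snap25-201. They made up 0.637% of Prph-201 and 0.636% of Stmn2-201, and none of Uchl1, Elavl4 or Syp-201. Tubb3 also lies within Gm20388 on the same strand. Of the 1838 words of Tubb3, 1778 occurred in no other deposited transcript that was assigned to a gene.

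The sequences before the starts of Uchl1 and Prph, the member chosen by its difference and the one with the largest tested difference, are shown because their levels ran together across libraries. Each has the 250 bases before the RefSeq start (GRCm38.p6, plus strand), at chr5:66675871-66676120 for Uchl1 and chr15:99054924-99055173 for Prph. The Uchl1 window ends inside the gene coordinates given above, which begin at 66676091. Uchl1-202 begins downstream of the window, at 66676892. Capitals mark TATA boxes (TATAAA) and GC boxes (GGGCGG) on either strand.
Prph: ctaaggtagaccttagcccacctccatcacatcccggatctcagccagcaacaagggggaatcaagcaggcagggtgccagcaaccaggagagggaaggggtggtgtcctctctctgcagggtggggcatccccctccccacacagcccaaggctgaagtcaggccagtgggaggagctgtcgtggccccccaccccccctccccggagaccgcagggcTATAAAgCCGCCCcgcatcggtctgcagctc
Uchl1: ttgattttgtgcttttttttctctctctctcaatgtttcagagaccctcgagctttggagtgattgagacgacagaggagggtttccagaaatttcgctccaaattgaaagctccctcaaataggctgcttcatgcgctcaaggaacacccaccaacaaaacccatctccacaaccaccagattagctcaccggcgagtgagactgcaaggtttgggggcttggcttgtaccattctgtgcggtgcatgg

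RefSeq promoters were at hand for 5 of the 7 genes, all but Stmn2 and Snap25. The Prph window held 1 TATA box and 1 GC box, which do not overlap, and the Uchl1 window neither. Tubb3 and Syp held 2 GC boxes each and Elavl4 neither motif. The windows of Tubb3 and Syp, like that of Uchl1, end inside the gene coordinates given above. Of 32851 promoter windows of the same length, 12.4% held TATAAA and 32.7% GGGCGG on either strand. The CCAAT box was found in Tubb3 alone of the 5 (33.8% of all windows), and CANNTG, TTCAGCACC and GGACAG in none (66.2%, 0.301% and 18.7% of all windows). These matches are descriptions of letters in the windows.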

How the data were processed

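The authors quantified single reads against GRCm38 transcripts with kallisto 0.42.4 and deposited estimated counts of 94080 transcripts in 44 libraries, not normalized. Groups came from the labels. Estimated counts were summed per gene with GENCODE vM21 for 92372 transcripts (the other 1708 held 0.329% to 1.3% of the counts of a library), rounded, filtered with filterByExpr (minimum count 10, minimum total 15), normalized by TMM and fitted with edgeR 4.0.16 (R 4.3.3), all libraries in one fit without covariates. The quasi-likelihood test was applied to each contrast, with Benjamini-Hochberg adjustment over 14901 genes, or 30782 transcripts, with a threshold of 0.05. Depth was 6065084 to 21945124 estimated counts per library. CPM are after TMM, TPM use annotated lengths, and log2 CPM for correlations have a prior count of 2.

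The members and gene lists were chosen with earlier results of these data known, and the 4 nervous system lists were pooled after their values were seen. Genes named are the 7 members, the 8 most correlated with Uchl1 in either order, list members past the threshold by smallest p (up to 6 per list in KO/NTZ versus KO/PEG and up to 4 in other comparisons), and the nearest relatives. Not every gene that this rule names is reported here. Nothing says that libraries of a group came from separate mice in every case, so p-values measure the spread between libraries. The number 110 occurs in 1 KO/PEG and 1 KO/NTZ library. Alternatives were DESeq2 1.42.0, limma-trend (limma 3.58.1), DESeq2 size factors, other filters, fewer libraries, and, chosen after seeing the data, the length slope as a covariate and leaving out each library. The tests were tried on simulated data. Plots were made in Python 3.11.15 with matplotlib 3.10.9.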

Additional observations from a re-analysis of the deposited data

Results flagged for a closer look

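Among 158 genes tested from the lists, Uchl1 left out, the effect of NTZ on 8 differed between KO and WT mice by the interaction test of edgeR (adjusted p under the threshold over all genes), where 0.242% of all genes tested had a higher and 0.718% a lower effect in KO. On the log2 scale, the effect in KO minus that in WT was 1.42 for Prph, 1.36 for Sox10, 0.69 for Tubb4a and 1.57 for Pcsk1n. The call of Prph was lost when any of 11 single libraries was left out. It was also lost with limma-trend, with no filter on low counts and with KO libraries numbered below 100. The effect in KO minus that in WT was −0.91 for Chga, −1.19 for Chgb, −1.22 for Hdc and −1.39 for Pcsk1. In the WT/NTZ group of 9 libraries, no library stood apart for any of the 7 neuronal genes by Dixon's test, and larger groups were not tested.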

How the results depend on the processing

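Without any 1 library, the number of the 6 genes past the threshold stayed at 3 in KO/NTZ versus KO/PEG, 6 in KO/PEG versus WT/PEG, and 4 in KO/NTZ versus WT/NTZ and versus WT/PEG, and was between 0 and 1 for the difference between the NTZ effects. With only the groups compared, or only KO libraries numbered below 100, it was 1 in KO/NTZ versus KO/PEG. For the difference between the NTZ effects it was 0 with no filter, with limma-trend and with KO libraries numbered below 100. It was 3 with the length slope as a covariate, which added Tubb3 (0.86) and Stmn2 (0.86). With the slope, it was 1 in KO/NTZ versus WT/NTZ and 1 versus WT/PEG. The slope turned Elavl4 to 0.043 and Snap25 to 0.84 in KO/PEG versus WT/PEG. It turned Elavl4 to 0.73, Snap25 to 0.64 and Uchl1 to −0.22 in KO/NTZ versus WT/NTZ, and Elavl4 to 0.82, Snap25 to 0.74 and Uchl1 to −0.47 in KO/NTZ versus WT/PEG. The cause was not tested. The other alternatives kept the direction of each gene that passed. Elavl4 was left out by the filter when only KO libraries were fitted, and its counts of 0 to 25 in KO libraries limit what can be shown. No paired analysis was possible because the replicate numbers were given in accession order.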
